A study of Homo sapiens with 9 samples.

Results

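The genes described here are the subunits of the proteasome, its activators and the factors that assemble it. They were taken from a table of 21417 gene symbols by name: every symbol made of PSMA to PSMG and a number, plus POMP and ADRM1. This gave 48 genes, of which 8 belong to the alpha rings of the core, 7 to its beta rings and 2 to a class listed as immunoproteasome. Of the others, 10 belong to the base, 8 to the lid, 5 to the activators and inhibitors and 8 to the assembly factors. The class listed as immunoproteasome holds PSMB10 and also PSMB11, which is the beta subunit of the thymus. PSMB8 and PSMB9, the other catalytic subunits of the immunoproteasome, were not analysed here. The cells were H9, an established line of human embryonic stem cells, and the series concerns how such cells take on a neuroectoderm fate. 3 libraries came from undifferentiated cells at day 0 (hESC), held on Matrigel in mTeSR1 medium. The next 3 came from neuroectoderm at day 5, obtained with 200 nM of NOGGIN, which blocks BMP signaling, and 10 µM of SB431542, which blocks activin and Nodal receptors. The last 3 came from mesendoderm at day 5, obtained in mTeSR1 with 5 ng/ml of BMP4. All 9 libraries thus stem from 1 line, and both lineages are compared with cells of another day as well as of another treatment.

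The proteasome is the protease that degrades proteins marked with ubiquitin. Its core is a barrel of alpha rings, which gate the entrance, and beta rings, which hold the cutting sites. A regulatory particle caps the barrel: its base unfolds substrates with a ring of ATPases, and its lid removes the ubiquitin. Other caps, the activators, can take the place of the regulatory particle, and dedicated chaperones build the rings before they join. Undifferentiated human embryonic stem cells are known for high proteasome activity, and the lid subunit PSMD11 and the factor FOXO4 have been tied to it. The transcription factors NFE2L1 and NFE2L2 (Nrf2) are known to raise the transcription of proteasome genes.

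Levels are RPKM, read numbers scaled to transcript length and library size, as deposited by the authors, with 1 transcript per gene. Differences are log2 differences of log2(RPKM + 1) ± SE between groups of 3 libraries, a scale that understates changes of low genes. A gene was called where the adjusted p of limma, with Benjamini-Hochberg adjustment over all 14473 genes tested, was under 0.05. Of the 48 genes, 46 reached the mean of 0.5 RPKM needed for the test. PSMA8, an alpha subunit known from testis, ranged from 0 to 0.26 RPKM over the 9 libraries, and PSMB11, the beta subunit of the thymus, from 0 to 0.10 RPKM. The 3 reads taken as the floor amount to 0.0258 to 0.0490 RPKM for PSMA8 and to 0.0204 to 0.0389 RPKM for PSMB11. The 10 members with a pseudogene named after them in GENCODE v29 are PSMA2, PSMA6, PSMB3, PSMB7, PSMC1, PSMD4, PSMD7, PSMD8, PSMD10 and PSME2. PSMD5, PSMD6 and PSMG3 have an antisense gene named after them in the table. Reads of these 13 genes may be split with, or come from, those partners, and their values are uncertain to that extent.

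The libraries held 36.6 to 69.6 M reads, as worked out from the steps of the low values. Summed over 6 markers each, pluripotency genes stood at 760 to 791 RPKM in hESC, against 357 to 371 in neuroectoderm and 289 to 370 in mesendoderm. LIN28A was the largest part of each sum (307, 275 and 174 RPKM on average in this order), and single genes differed between the lineages. NANOG averaged 0.127 RPKM in neuroectoderm and 12.2 in mesendoderm, and TDGF1 0.06 and 23.7. SOX2 went the other way, with 42.6 and 3.11 RPKM. Neuroectoderm genes summed to 216 to 253 RPKM in neuroectoderm and at most 40.9 elsewhere. Mesendoderm genes summed to 97.5 to 153 RPKM in mesendoderm and at most 1.10 elsewhere, so the sums of these lists follow the labels. Most of the neuroectoderm sum was OTX2 (176 RPKM on average, against 36.7 in hESC). PAX6, SOX1, ZIC1 and HES5 were also highest in neuroectoderm, but LHX2 was at most 0.20 RPKM in every library. GSC of the mesendoderm list averaged 2.27 RPKM in mesendoderm, and 0.57 in neuroectoderm against 0.03 in hESC. Mesendoderm also had the highest sums of 5 of the 6 trophoblast and amnion genes listed (88.5 to 137 RPKM, against 4.88 to 7.21 in hESC and 0.990 to 1.33 in neuroectoderm). Most of it was HAND1 (68.75 ± 23.5 RPKM) and KRT7 (26.3 ± 2.79 RPKM). GATA3 and TFAP2A were also highest in mesendoderm (10.5 and 14.7 RPKM on average), while CGA was lower there than in hESC (0.0433 against 0.213 RPKM). The sum of 5 endothelial genes was 82.7 to 88.4 RPKM in mesendoderm, 27.6 to 29.5 in hESC and 13.5 to 18.1 in neuroectoderm, but nearly all of it in mesendoderm was KDR (83.4 ± 2.89 RPKM). TEK was lower there (1.63 RPKM on average, against 5.64 in hESC and 10.1 in neuroectoderm), VWF was highest in neuroectoderm (2.22 RPKM on average), and PECAM1 and CDH5 were at most 0.22 RPKM in every library. The part of such cells in the differences below was not tested. 3 libraries stood apart from the others of their group in a way that followed the GC content of the transcripts: neuroectoderm 1, hESC 2 and, less so, mesendoderm 1. Over 13319 genes, the Spearman correlation of a library's deviation from the other 2 of its group with GC content was -0.60, -0.65 and -0.32 in these, and 0.21 to 0.62 in the other 6. Proteasome genes were low in the same libraries: neuroectoderm 1 lay below the mean of neuroectoderm 2 and 3 for 45 of 46 members, hESC 2 below its partners for 38 and mesendoderm 1 for 39. The share of all genes lying below is not given, and the part of GC content in these low values was not tested. Each comparison is therefore also given without these libraries.

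In neuroectoderm, proteasome genes of every class but the beta subunits were called lower than in hESC. The beta subunits gave no call, which is not a lack of difference: all of theirs lay below 0 in the fit of all 9 libraries. In the immunoproteasome class PSMB10 was the only gene tested. Of 46 members, 20 were called lower and 0 higher, and 43 had a difference below 0. Over all genes tested, 22.3% were called lower and 21.9% higher. The median difference of the members was -0.51, against -0.02 over all genes tested. At an unadjusted p under 0.05, limma gave 26 lower and 0 higher. No share over all genes is given at that threshold, here or below, so the unadjusted counts are not read as results about these genes. Of the 20 calls, 14 held under all 21 alternative settings. The calls lost under some of them were PSMA4, PSMC2, PSMC6, PSMD7, PSMD13 and PSMD14. In such bulk libraries, fewer cells of a type and less RNA per cell cannot be told apart. Leaving out neuroectoderm 1 kept all 20 calls (20 lower and 2 higher, with 23.3% of all genes called lower and 28.0% higher), but took the median from -0.51 to -0.33. Without the 3 libraries set apart, 26 members were lower, the same 20 among them, and 2 were higher. The share over all genes is not given for that fit, so the rise from 20 is not read as a result about these genes.

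**Figure D1:**
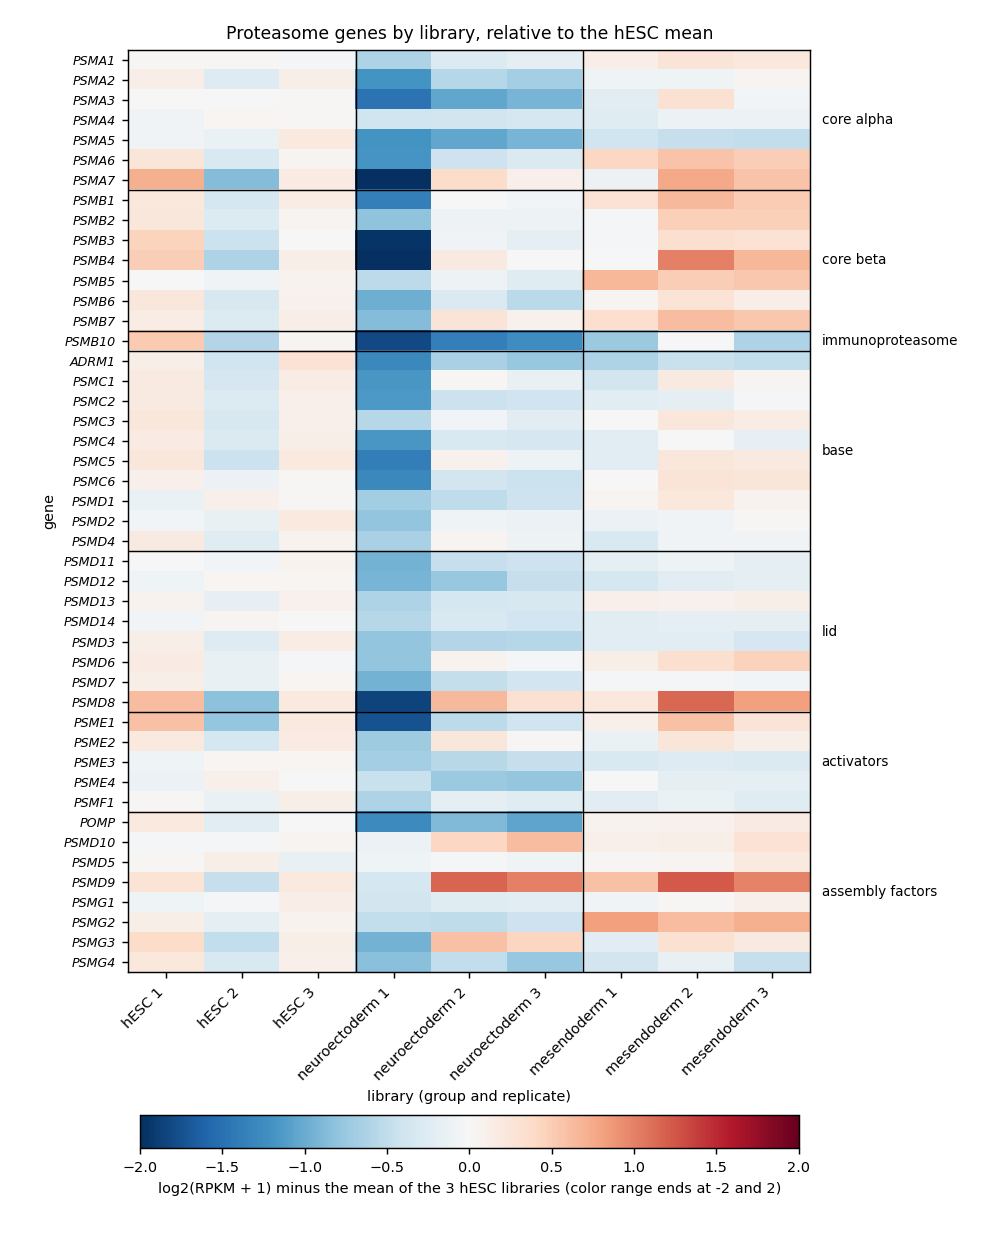
Each row is 1 of the 46 proteasome genes tested, grouped by particle, and each column 1 library. The color gives log2(RPKM + 1) minus the mean of the 3 hESC libraries, from blue (lower) to red (higher). Neuroectoderm 1 was lower than the mean of neuroectoderm 2 and 3 in 45 of 46 genes, and POMP, PSMA3, PSMA5 and PSMB10 were low in all 3 neuroectoderm libraries.

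Among the alpha subunits, 4 of 7 fell in neuroectoderm (PSMA2, PSMA3, PSMA4 and PSMA5), with a class median of -0.63. PSMA3 stood at 64.1, 64.2 and 65.8 RPKM in hESC 1 to 3 and at 22.6, 30.8 and 33.4 RPKM in neuroectoderm 1 to 3. Its highest neuroectoderm library thus lay far below its lowest hESC library, and the difference was -1.15 ± 0.18 (limma adjusted p = 0.000885, n = 3 libraries per group). The row with the highest mean for PSMA3, and so the one used, is a transcript that RefSeq lists as non-coding. PSMA5 stood at 29.1, 28.0 and 35.3 RPKM in hESC and at 12.8, 14.4 and 15.6 RPKM in neuroectoderm, with no overlap. Its difference was -1.06 ± 0.12 (limma adjusted p = 0.000148). PSMA2 went from 99.7 ± 14.7 to 56.9 ± 12.7 RPKM (mean ± SD, n = 3), a difference of -0.81 ± 0.19 (limma adjusted p = 0.0083). PSMA4 showed a smaller step, from 117 ± 5.09 to 90.5 ± 2.13 RPKM, and was called in only 10 of the 21 alternative settings. PSMA1 (-0.36), PSMA6 (-0.63) and PSMA7 (-0.54) did not pass the test. The libraries of PSMA7 were spread widely, from 20.1 to 114 RPKM in neuroectoderm and from 47.9 to 145 RPKM in hESC.

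The beta subunits, which carry the cutting sites, gave 0 calls by limma in this comparison, and 1 at an unadjusted p under 0.05, while all 7 differences lay below 0 (median -0.48). PSMB5, the chymotrypsin-like subunit, stood at 105, 99.5 and 111 RPKM in hESC and at 72.5, 97.9 and 88.5 RPKM in neuroectoderm (-0.29 ± 0.15, limma adjusted p = 0.151). The groups did not overlap, but neuroectoderm 2 lay just under hESC 2. PSMB6, the caspase-like subunit, was at 158 ± 30.1 RPKM in hESC and 105 ± 24.7 RPKM in neuroectoderm (-0.60 ± 0.22, limma adjusted p = 0.0503), with adjusted p of 0.00563 to 0.159 over the 21 alternatives. PSMB7, the trypsin-like subunit, was at 89.5 ± 14.5 and 83.0 ± 30.7 RPKM (-0.17 ± 0.28, limma adjusted p = 0.659). Without neuroectoderm 1 its difference was 0.17, above 0. For the beta class as a whole the median was -0.10 without that library, with 2 of the 7 differences above 0 and still no call.

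PSMB10, which takes the place of PSMB7 in the immunoproteasome, had the largest difference of all members. It stood at 12.9, 5.41 and 9.04 RPKM in hESC and at 1.76, 2.72 and 3.07 RPKM in neuroectoderm. The groups did not overlap, and the difference was -1.47 ± 0.30 (limma adjusted p = 0.00381), with a call in all 21 alternative settings. Set against PSMB7 in the same library, PSMB10 amounted to 13.1%, 7.43% and 9.32% of its RPKM in hESC and to 3.65%, 2.56% and 3.25% in neuroectoderm. Here neuroectoderm 1 was the highest of its group, so the low ratio in neuroectoderm did not rest on that library. In mesendoderm the ratio was 4.26%, 6.40% and 4.13%, between the other groups and without overlap with either. Immune cells are a source of PSMB10 in many tissues. The 5 of 6 immune markers in the table summed to 10.5 to 15.4 RPKM in hESC, 9.64 to 15.5 in neuroectoderm and 7.80 to 12.6 in mesendoderm. CD74 made up most of it, while the defining marker PTPRC was at most 0.16 RPKM and CD3E at most 0.24 RPKM. LYZ was at 1.47, 2.18 and 1.26 RPKM in hESC, at 4.16, 0.31 and 0.38 RPKM in neuroectoderm, highest in neuroectoderm 1, and at most 0.16 RPKM in mesendoderm. The part of such cells in the values of PSMB10 was not tested.

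In the base, 4 of 10 members fell (median -0.50): ADRM1, PSMC2, PSMC6 and PSMD1. ADRM1, a receptor for ubiquitin that holds the deubiquitinase UCHL5, stood at 104, 72.7 and 118 RPKM in hESC and at 38.8, 61.2 and 56.6 RPKM in neuroectoderm. The groups did not overlap, and the difference was -0.90 ± 0.22 (limma adjusted p = 0.0103). PSMC6, an ATPase, went from 31.5 ± 2.45 to 19.8 ± 6.58 RPKM (-0.70 ± 0.23, limma adjusted p = 0.0365). Its call was lost without any 1 of the 3 hESC libraries (0.105, 0.0569 and 0.0931 without hESC 1, 2 and 3), without mesendoderm 2 (0.0526) or 3 (0.0563), which share the estimate of spread, with only the 2 groups compared (0.0776) and with the GC trend removed (0.0666). Without neuroectoderm 1 it was called at a smaller difference of -0.40 (0.0207). PSMD1, a scaffold subunit, went from 49.1 ± 4.24 to 33.5 ± 3.46 RPKM and was called in all 21 alternatives. The other 6, PSMC1, PSMC3, PSMC4, PSMC5, PSMD2 and the ubiquitin receptor PSMD4, had differences of -0.23 to -0.60 and did not pass the test.

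In the lid, 6 of 8 members fell (PSMD3, PSMD7, PSMD11, PSMD12, PSMD13 and PSMD14), over a range of -0.41 to -0.72. The calls of PSMD3, PSMD11 and PSMD12 held under all 21 alternatives, while those of PSMD7, PSMD13 and PSMD14 were lost without hESC 3, among others. PSMD12, a scaffold of the lid, stood at 19.3, 21.2 and 21.0 RPKM in hESC and at 10.3, 11.7 and 14.6 RPKM in neuroectoderm, a difference of -0.72 ± 0.13 (limma adjusted p = 0.00214). PSMD11, the subunit tied to proteasome activity in stem cells, stood at 52.4, 50.5 and 55.2 RPKM in hESC, at 26.8, 38.0 and 39.2 RPKM in neuroectoderm and at 46.2, 49.2 and 46.4 RPKM in mesendoderm. All 3 groups were apart from each other, with neuroectoderm lowest. Its difference from hESC was -0.61 ± 0.15 in neuroectoderm (limma adjusted p = 0.0109) and -0.15 ± 0.15 in mesendoderm (limma adjusted p = 0.48). PSMD14, the deubiquitinase of the lid, went from 45.1 ± 1.83 to 33.6 ± 3.24 RPKM, and its partner PSMD7 from 50.2 ± 4.58 to 33.2 ± 6.76 RPKM. PSMD6 (-0.25) and PSMD8 (-0.30) did not pass the test. PSMD8 stood at 8.26, 51.2 and 40.3 RPKM in neuroectoderm 1 to 3, with the first far below the others.

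2 of the 5 activators and inhibitors fell, PSME3 and PSME4 (class median -0.56). PSME4, a cap linked to breakdown of proteins without ubiquitin, stood at 16.9, 19.8 and 18.4 RPKM in hESC and at 13.2, 10.6 and 10.3 RPKM in neuroectoderm. It was the 1 member whose value in neuroectoderm 1 was above the mean of neuroectoderm 2 and 3, and its difference was -0.65 ± 0.12 (limma adjusted p = 0.00262). PSME3, the activator found in the nucleus, went from 56.0 ± 2.67 to 37.6 ± 2.87 RPKM (-0.56 ± 0.11, limma adjusted p = 0.00301). PSME1 and PSME2, which form the interferon-induced activator, did not pass the test: PSME1 was at 18.4 ± 8.31 and 9.54 ± 4.49 RPKM (-0.89 ± 0.42, limma adjusted p = 0.117), and PSME2 at 41.3 ± 8.22 and 37.9 ± 11.9 RPKM (-0.15 ± 0.25, limma adjusted p = 0.661). The difference of PSME1 ranged from -1.27 without hESC 2, where it was called (0.0312), to -0.46 without neuroectoderm 1 (0.292), and it was also called without the 3 libraries set apart (0.00349). The inhibitor PSMF1 was at 15.3 ± 1.42 and 11.9 ± 2.04 RPKM (-0.35 ± 0.13, limma adjusted p = 0.0634).

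The assembly factors were split. POMP, which brings the beta subunits onto the alpha ring and is degraded when the core is complete, stood at 23.0, 17.1 and 20.1 RPKM in hESC and at 7.65, 10.4 and 9.10 RPKM in neuroectoderm. The groups were far apart, and the difference was -1.07 ± 0.14 (limma adjusted p = 0.000278). PSMG2 and PSMG4, chaperones of the alpha ring, also fell: PSMG2 went from 16.7 ± 1.95 to 11.8 ± 0.437 RPKM (-0.47 ± 0.11, limma adjusted p = 0.00908) and PSMG4 from 9.27 ± 1.84 to 5.31 ± 0.824 RPKM (-0.69 ± 0.16). PSMG1 (-0.27), PSMG3 (0.03) and the base chaperones PSMD5 (-0.06), PSMD9 (0.61) and PSMD10 (0.30) did not pass the test. Once neuroectoderm 1 was left out, PSMD9 was called higher (1.08 ± 0.25, limma adjusted p = 0.00645), as was PSMD10 (0.51 ± 0.10, limma adjusted p = 0.00321). PSMD9 stood at 8.13, 4.44 and 7.57 RPKM in hESC and at 4.92, 15.8 and 14.1 RPKM in neuroectoderm, so that neuroectoderm 1 lay within the hESC range and the other libraries above it.

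**Figure D2:**
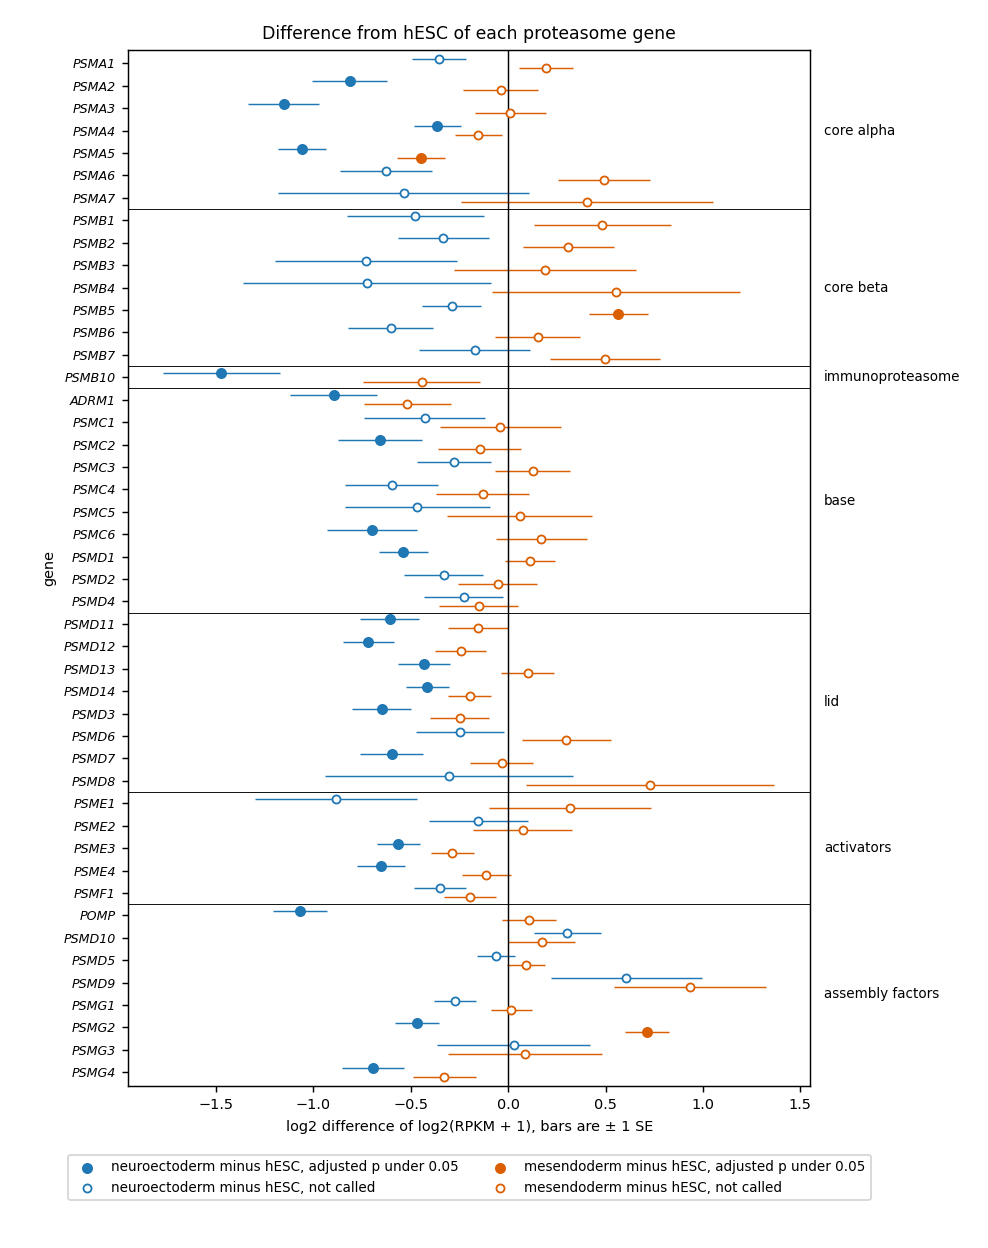
Each row is 1 gene, with its log2 difference of log2(RPKM + 1) from hESC (bars ± 1 SE from the model) in neuroectoderm (blue) and mesendoderm (orange), and filled points are calls at an adjusted p under 0.05. In neuroectoderm 20 filled points lie below 0 and none above, whereas in mesendoderm 1 lies below 0 and 2 above.

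The promoters of 5 members are shown because these genes carried the largest calls (PSMB10, PSMA3, POMP and PSMA5 in neuroectoderm) or were called in opposite directions in the lineages (PSMG2). The 250 bases before the RefSeq start site are given 5′ to 3′ on the gene's strand, in build GRCh38.p14, with capitals for 3 motifs on either strand. CCAAT is bound by NF-Y, TGACNNNGC is the core of the antioxidant response element, which NFE2L1 and NFE2L2 bind with small MAF proteins, and GAAANNGAA is the form bound by interferon regulatory factors. The stretches are POMP at chr13:28658880-28659129 (plus strand), PSMA3 at chr14:58244593-58244842 (plus), PSMA5 at chr1:109426449-109426698 (minus), PSMB10 at chr16:67936851-67937100 (minus) and PSMG2 at chr18:12658488-12658737 (plus).
POMP: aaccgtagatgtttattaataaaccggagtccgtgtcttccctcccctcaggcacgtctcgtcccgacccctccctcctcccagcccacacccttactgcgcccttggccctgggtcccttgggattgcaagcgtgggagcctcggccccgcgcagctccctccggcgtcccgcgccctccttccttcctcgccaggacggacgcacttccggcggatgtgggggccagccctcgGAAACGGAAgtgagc
PSMA3: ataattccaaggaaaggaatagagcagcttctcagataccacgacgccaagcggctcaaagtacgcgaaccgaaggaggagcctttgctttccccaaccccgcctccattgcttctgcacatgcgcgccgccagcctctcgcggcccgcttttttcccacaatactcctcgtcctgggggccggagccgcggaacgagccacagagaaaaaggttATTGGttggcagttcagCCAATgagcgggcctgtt
PSMA5: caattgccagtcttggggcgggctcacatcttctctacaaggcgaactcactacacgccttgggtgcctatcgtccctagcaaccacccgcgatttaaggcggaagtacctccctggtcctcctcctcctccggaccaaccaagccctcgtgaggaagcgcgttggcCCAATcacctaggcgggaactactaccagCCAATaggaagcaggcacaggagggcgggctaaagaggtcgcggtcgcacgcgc
PSMB10: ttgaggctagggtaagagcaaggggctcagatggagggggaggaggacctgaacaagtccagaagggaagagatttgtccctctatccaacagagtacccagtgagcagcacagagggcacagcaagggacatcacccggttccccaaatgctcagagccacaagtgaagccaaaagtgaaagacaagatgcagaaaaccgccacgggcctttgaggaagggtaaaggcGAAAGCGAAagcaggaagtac
PSMG2: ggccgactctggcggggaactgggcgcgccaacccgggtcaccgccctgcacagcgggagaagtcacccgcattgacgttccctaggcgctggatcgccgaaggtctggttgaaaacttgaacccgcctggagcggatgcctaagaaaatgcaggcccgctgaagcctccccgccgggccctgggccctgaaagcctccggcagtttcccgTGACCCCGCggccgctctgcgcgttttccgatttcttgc

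PSMA3 and PSMA5 each held CCAAT or its reverse complement at 2 places, POMP and PSMB10 each held GAAANNGAA once close to the start site, and PSMG2 held TGACNNNGC once, 39 bases before it. A sequence was at hand for 40 of the 46 members tested, not for PSMA7, PSMB1, PSMB6, PSMB7, PSMD4 and PSMG3. TGACNNNGC occurred in 11 of the 40 (27.5%) and in 11.0% of 27305 promoters of all genes. It was present in 5 of the 20 members called lower in neuroectoderm and in 6 of the other 20. CCAAT occurred in 42.5% of the members and 33.0% of all promoters, GGGCGG, the box bound by SP factors, in 65.0% and 42.3%, and CCGGAAG, bound by ETS factors, in 25.0% and 8.82% (7 of the 20 lower members and 3 of the other 20). GAAANNGAA occurred in 15.0% and 7.06%, and AAGATGGCG, the form bound by YY1, in 0 of 40 members and 0.641% of all promoters. Matches of different motifs overlapped at 2 places, where GGGCGG met CCGGAAG (PSME4 and PSMG4). These matches are a description of the letters, not of binding.

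Few of these genes were called in mesendoderm against hESC, which is not the same as a lack of difference. 1 of 46 members was called lower and 2 higher, where 18.1% of all genes tested were called lower and 17.0% higher. The median difference was 0.08, against -0.02 over all genes tested, and 27 of the 46 differences were above 0. The largest difference, that of PSMD9 (0.93 ± 0.39), did not pass the test (limma adjusted p = 0.0956), though its groups did not overlap. PSMG2 stood at 30.0, 26.2 and 27.7 RPKM in mesendoderm and at 18.1, 14.5 and 17.5 RPKM in hESC, with no overlap. It rose by 0.71 ± 0.11 (limma adjusted p = 0.00126), and was called in all 21 alternatives. PSMB5 rose too, from 105, 99.5 and 111 RPKM to 166, 148 and 154 RPKM (0.56 ± 0.15, limma adjusted p = 0.0182). This call was lost without hESC 1 (0.0506), hESC 2 (0.0575), mesendoderm 1 (0.0664) or mesendoderm 3 (0.0602) and with the replicate block (0.0537), with no change of direction. PSMA5 fell, from 29.1, 28.0 and 35.3 RPKM to 23.1, 22.1 and 21.4 RPKM (-0.45 ± 0.12, limma adjusted p = 0.0208), and was not called without hESC 3 (0.0828), mesendoderm 2 (0.0565) or mesendoderm 3 (0.0793).

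The beta subunits were the class that stood highest in mesendoderm: all 7 differences from hESC lay above 0, from 0.15 to 0.56, with a median of 0.48, and PSMB5 was the 1 call among them. All 7 were low in hESC 2, from 52.2% (PSMB4) to 92.3% (PSMB5) of the mean of hESC 1 and 3. Without hESC 2 the difference of PSMB6 was -0.009. The class median without that library is not given, so how far the 0.48 rests on it was not tested. PSMB7 was at 126 ± 12.3 RPKM in mesendoderm against 89.5 ± 14.5 in hESC (0.50 ± 0.28, limma adjusted p = 0.212), and PSMB6 at 174 ± 13.4 against 158 ± 30.1 (0.15 ± 0.22, limma adjusted p = 0.635). Alpha subunits had a median of 0.01, the base -0.05, the lid -0.09, the activators -0.11 and the assembly factors 0.10. POMP, at 21.1, 21.2 and 22.3 RPKM, lay within the range of hESC (0.11 ± 0.14, limma adjusted p = 0.597). PSMB10 was at 6.28 ± 2.15 RPKM (-0.44 ± 0.30, limma adjusted p = 0.291), and ADRM1 at 67.0 ± 4.13 RPKM (-0.52 ± 0.22, limma adjusted p = 0.105). Counts of calls moved with single libraries here. Without neuroectoderm 1, which enters only through the shared estimate of spread, 3 members were lower and 6 higher, PSMA6, PSMB1, PSMB7 and PSMD9 being added to the latter. Without the 3 libraries set apart, 6 were lower and 10 higher, among them 5 of the 7 beta subunits. The shares over all genes are not given for either fit, so these counts show only that the calls moved.

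**Figure D3:**
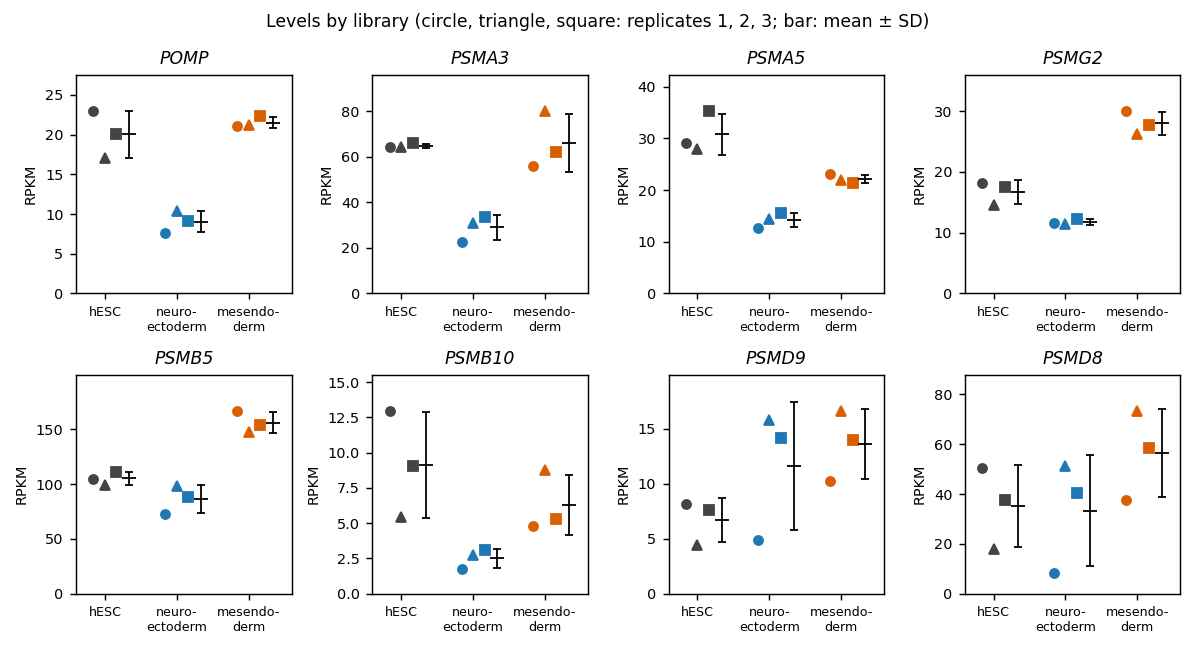
RPKM of 8 proteasome genes in each library (circles, triangles and squares are replicates 1, 2 and 3 of a group), with the group mean ± SD as a black bar, n = 3. POMP, PSMA3 and PSMA5 were low in all 3 neuroectoderm libraries, PSMG2 was low in neuroectoderm and high in mesendoderm, and in PSMD8 and PSMD9 neuroectoderm 1 lay far below neuroectoderm 2 and 3.

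Compared directly, neuroectoderm lay below mesendoderm in 45 of 46 members, with 20 called lower and 0 higher by limma (27 and 0 at an unadjusted p under 0.05, for which no share over all genes is given). Of these 20 calls, 9 held under all 21 alternatives. Over all genes tested, 24.1% were called lower and 24.0% higher, and the median difference was -0.54 in the members against -0.01 over all genes. Without neuroectoderm 1 the members' median was -0.30, and 41 of 46 lay below mesendoderm. The replicate block, under which PSMB1, PSMB2, PSMD11 and PSME1 lost their calls, left 16 lower. The 3 contrasts share libraries, so the values are set side by side rather than counted as further evidence. 13 members were lower than both hESC and mesendoderm: POMP, PSMA2, PSMA3, PSMA5, PSMB10, PSMC6, PSMD1, PSMD7, PSMD11, PSMD12, PSMD13, PSME4 and PSMG2. ADRM1, PSMA4, PSMC2, PSMD3, PSMD14, PSME3 and PSMG4 were called against hESC and not against mesendoderm. PSMA1, PSMA6, PSMB1, PSMB2, PSMB5, PSMB6 and PSME1 were called against mesendoderm and not against hESC, and 4 of these 7 are beta subunits.

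PSMG2 had the lowest adjusted p of the members in this comparison, 11.6, 11.4 and 12.3 RPKM in neuroectoderm against 30.0, 26.2 and 27.7 RPKM in mesendoderm (-1.18 ± 0.11, limma adjusted p = 3.33e-05). Since hESC drops out, this contrast is also the test that its changes from hESC differ between the lineages. PSMA3, at 55.9, 80.0 and 62.1 RPKM in mesendoderm, differed by -1.17 ± 0.18 (limma adjusted p = 0.000717). For POMP, with 7.65 to 10.4 RPKM against 21.1 to 22.3 RPKM, the limma adjusted p was 0.000128. PSMA6 was at 30.6 ± 9.38 and 65.4 ± 3.58 RPKM (-1.12 ± 0.24, limma adjusted p = 0.00412), and PSMB5 at 86.3 ± 12.9 and 156 ± 9.51 RPKM (-0.86 ± 0.15, limma adjusted p = 0.00147). PSMB6 was called at -0.76 ± 0.22 (limma adjusted p = 0.0189), a call that did not hold without mesendoderm 2 (0.0652) or 3 (0.0534). PSMB10 was called at -1.03 ± 0.30 (limma adjusted p = 0.0199), but not without mesendoderm 2 (0.0734), where it stood at 8.74 RPKM against 4.79 and 5.31 in the other mesendoderm libraries. PSME1 had a nominally larger difference of -1.20 ± 0.42 (limma adjusted p = 0.04), a call lost without hESC 3 (0.0566), neuroectoderm 1 (0.0883) or mesendoderm 1, 2 or 3 (0.0647, 0.119 and 0.0865), with no filter on low values (0.0526) and with the replicate block (0.0698). Without neuroectoderm 1 its difference was -0.77. PSMB1 (-0.96 ± 0.35, limma adjusted p = 0.0495) was called in 10 of the 21 alternatives, and among the fits without 1 library only in those without neuroectoderm 2 or 3. Its difference was -0.51 without neuroectoderm 1. The count of 20 was 17 without neuroectoderm 1 (PSMB1, PSMB2 and PSME1 lost, PSMD10 called higher, beside 23.5% lower and 28.4% higher over all genes). It was 12 without mesendoderm 2 and 13 without mesendoderm 3. Without the 3 libraries set apart it was 29, all 7 beta subunits included. Shares over all genes are not given for the fits without mesendoderm 2, without mesendoderm 3 or without the 3 libraries.

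Neuroectoderm 1 was low across nearly the whole set. Its median difference from neuroectoderm 2 and 3 was -0.57 over the 46 members, against -0.38 for hESC 2 and -0.14 for mesendoderm 1 from their own partners. The lowest members, picked after their values were seen, were PSMB4 at 17.6%, PSMD8 at 18.1% and PSMA7 at 19.2% of the mean of neuroectoderm 2 and 3. Next came PSMB3 at 27.3%, PSMD9 at 32.9% and PSMG3 at 34.1%. None of these 6 was called in neuroectoderm against hESC, but their spread made a call unlikely from the start (SE of 0.64 for PSMB4, PSMD8 and PSMA7). The 4 members with the largest calls stood at 60.8% (PSMB10), 70.2% (PSMA3), 78.6% (POMP) and 85.1% (PSMA5). Calls favor genes whose libraries lie close together, so these percentages are given as values only. Some members were low in hESC 2 as well: PSMA7 was at 39.2% of the mean of hESC 1 and 3, PSMD8 at 40.7% and PSME1 at 41.7%. Over the 46 members the Spearman correlation of the deviation with GC content, a description only, since genes share a library, was -0.37 in neuroectoderm 1 and -0.68 in hESC 2. Neuroectoderm 1 also had the largest share of reads in small RNA genes, 11.7% against 5.35% to 7.83% elsewhere, and the part of this in the low values was not tested. When the trend with GC content within groups was removed, an alternative added after the data were seen, 27 members were lower and none higher in neuroectoderm against hESC, 19 of the 20 among them and PSMC6 lost. This step acts within each group, so it changes the spread and leaves the differences nearly as they were (PSMC6 at -0.70 in both fits). It therefore cannot show what part GC content has in the differences. The share over all genes is not given for this fit.

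**Figure D4:**
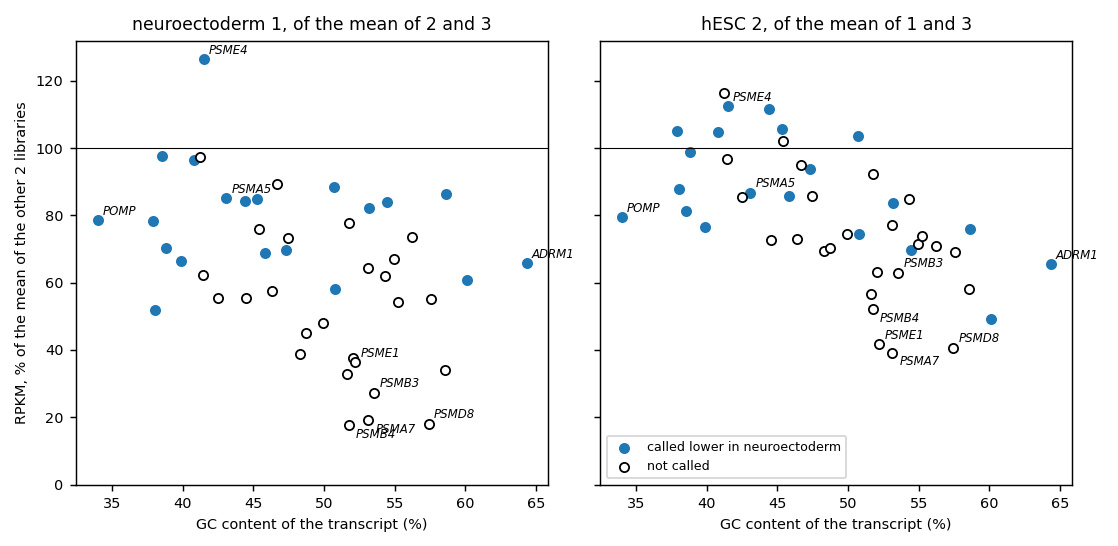
Each point is 1 of the 46 proteasome genes, with the GC content of its transcript (%) on the x axis and, on the y axis, its RPKM in neuroectoderm 1 (left) or hESC 2 (right) as % of the mean of the other 2 libraries of that group. Filled points are the 20 genes called lower in neuroectoderm than in hESC. PSMB4, PSMD8 and PSMA7, all uncalled, lie under 20% in neuroectoderm 1, and PSME4 is the 1 gene above 100% there.

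Among 14 genes listed as associated with the proteasome, 5 fell and 1 rose in neuroectoderm against hESC (median -0.03), and 1 fell in mesendoderm. Of all genes tested, 22.3% fell and 21.9% rose in neuroectoderm, and 18.1% and 17.0% in mesendoderm. KIAA0368, an adaptor that joins the core to the regulatory particle, fell in both lineages, from 31.2 ± 2.23 RPKM to 17.3 ± 0.762 in neuroectoderm and 15.3 ± 0.772 in mesendoderm (-0.82 and -0.98, limma adjusted p = 0.000205 and 8.92e-05). SHFM1, a small subunit of the lid under its own name, went from 37.7 ± 3.51 to 22.3 ± 6.29 RPKM in neuroectoderm (-0.76 ± 0.20, limma adjusted p = 0.0131), a call lost without hESC 1 (0.0507). Of the deubiquitinases that sit on the base, UCHL5 fell from 8.96 ± 0.700 to 6.33 ± 0.456 RPKM (-0.44 ± 0.10, limma adjusted p = 0.00653), while USP14 was at 13.4 ± 1.42 and 14.4 ± 1.58 RPKM (limma adjusted p = 0.506). PAAF1, which binds the ATPases, rose from 8.53 ± 1.24 to 14.0 ± 2.41 RPKM (0.65 ± 0.15, limma adjusted p = 0.00635). In neuroectoderm against mesendoderm, 4 of the 14 were lower and 3 higher, near the 24.1% and 24.0% over all genes.

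Of 14 regulators of proteasome genes, 4 fell and 1 rose in neuroectoderm against hESC, and 1 fell and 2 rose in mesendoderm, where all genes gave 22.3% and 21.9%, and 18.1% and 17.0%. NFE2L1 was at 50.5 ± 3.50 RPKM in hESC, 49.7 ± 11.4 in neuroectoderm and 41.9 ± 1.52 in mesendoderm, with no call. It was called higher in neuroectoderm than in mesendoderm without neuroectoderm 1 (0.42, limma adjusted p = 0.00845, against 0.22 with it), without the 3 libraries set apart (0.00823) and with quantile normalization (0.0117), and lower in mesendoderm than in hESC without neuroectoderm 1 (0.0434). NFE2L2 was at 7.25 ± 0.625, 8.94 ± 1.56 and 12.3 ± 0.358 RPKM. It rose in mesendoderm (0.70 ± 0.13, limma adjusted p = 0.00261), and its difference of 0.26 ± 0.13 in neuroectoderm was called only without neuroectoderm 1 (limma adjusted p = 0.0153) and without the 3 libraries set apart (0.00675). KEAP1, which marks NFE2L2 for degradation, gave no call. The small MAF partners of NFE2L1 and NFE2L2 fell in neuroectoderm: MAFK went from 4.69 ± 0.549 to 1.83 ± 0.369 RPKM (-1.01 ± 0.13, limma adjusted p = 0.000297), MAFG from 3.73 ± 0.487 to 2.48 ± 0.136 RPKM (-0.44 ± 0.11) and MAFF from 0.763 ± 0.0833 to 0.267 ± 0.127 RPKM (-0.48 ± 0.13, not called without hESC 3, with an adjusted p of 0.055, or with quantile normalization, with 0.0829). BACH1, a repressor at the same sites, rose from 9.95 ± 1.82 to 14.4 ± 0.530 RPKM (0.50 ± 0.13, limma adjusted p = 0.0108). FOXO4, the forkhead factor tied to PSMD11 in stem cells, stood at 7.99 ± 0.431 RPKM in hESC, 2.12 ± 0.185 in neuroectoderm and 8.53 ± 0.598 in mesendoderm. Its difference from hESC was -1.53 ± 0.09 in neuroectoderm (limma adjusted p = 2.56e-06), beside -1.47 for PSMB10, and it was called in all 21 alternatives.

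Of 9 genes for ubiquitin and its activation, 0 fell and 1 rose by limma in neuroectoderm against hESC (2 and 1 at an unadjusted p under 0.05), and 0 were called in mesendoderm (0 at an unadjusted p under 0.05), beside the same shares over all genes (22.3% and 21.9%, and 18.1% and 17.0%). These shares are for the adjusted p, and none is given for the unadjusted counts. UBB was at 396 ± 107, 345 ± 116 and 319 ± 16.9 RPKM in hESC, neuroectoderm and mesendoderm. UBE2R2, a ubiquitin-conjugating enzyme, rose in neuroectoderm from 16.6 ± 1.02 to 29.1 ± 4.45 RPKM (0.77 ± 0.13, limma adjusted p = 0.00117). RPS27A, which encodes ubiquitin joined to a ribosomal protein, was lower in neuroectoderm than in mesendoderm (-0.76 ± 0.28, limma adjusted p = 0.0462). Its call was lost without neuroectoderm 1, 2 or 3 (0.1, 0.0513 and 0.0606), hESC 3 (0.0702), mesendoderm 2 (0.154) or mesendoderm 3 (0.114), and with no filter on low values (0.0569), only the 2 groups compared (0.062) or the replicate block (0.0871).

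Of 7 antigen processing genes tested, 2 fell and 1 rose in neuroectoderm against hESC, and 3 fell and 1 rose in mesendoderm, against 22.3% and 21.9%, and 18.1% and 17.0%, of all genes. B2M, the light chain of the class I complex, stood at 17.6 ± 1.17 RPKM in hESC, 18.2 ± 5.94 in neuroectoderm and 58.1 ± 2.03 in mesendoderm. It rose in mesendoderm by 1.67 ± 0.22 (limma adjusted p = 0.000412), while in neuroectoderm the difference was -0.01 ± 0.22 (limma adjusted p = 0.98), or 0.28 and called higher without neuroectoderm 1 (0.0352), as it was without the 3 libraries set apart (0.04). ERAP1, which trims peptides, rose in neuroectoderm from 6.13 ± 0.0757 to 8.89 ± 1.01 RPKM (0.47 ± 0.10) and fell in mesendoderm to 3.46 ± 0.225 RPKM (-0.68 ± 0.10). PDIA3, a chaperone of the loading complex, fell in neuroectoderm from 80.8 ± 7.81 to 42.0 ± 7.27 RPKM (-0.94 ± 0.15, limma adjusted p = 0.00106). PDIA3 also fell in mesendoderm, to 56.9 ± 3.79 RPKM (-0.50 ± 0.15, limma adjusted p = 0.0329), a call lost in 8 of the 21 alternatives. IRF1, a factor known to drive immunoproteasome genes under interferon, was low throughout, at 1.68 ± 0.177, 0.740 ± 0.173 and 1.45 ± 0.0608 RPKM, and fell in neuroectoderm (-0.62 ± 0.10, limma adjusted p = 0.000967).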

How the data were processed

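Total RNA of 9 libraries (3 each of hESC, neuroectoderm and mesendoderm, grouped by title) was depleted of ribosomal RNA and sequenced as Ion Torrent libraries, per the labels' protocols. Nothing in the labels says that replicates were separate cultures: the p-values rest on the spread of these samples alone, and it may be technical. The deposited values are RPKM of 38759 RefSeq transcripts, made by the authors. TopHat2 2.0.13, Bowtie2 and build hg19 are named in the submitters' processing notes, while the counting tool, its use of strand and its treatment of reads with several matches are not named there.

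For each of 21417 symbols the row of highest mean was kept. Genes averaging 0.5 RPKM or more (14473) were fitted as log2(RPKM + 1) in 1 model of group over all 9 libraries (limma 3.58.1, R 4.3.3, mean-variance trend), with Benjamini-Hochberg adjustment over all of them for each of 3 contrasts. The script was tested on simulated data. Genes were named by a rule: up to 8 members with the largest calls per contrast, fixed members of known role, and up to 4 calls per further list. The other members are given so that each is accounted for, and some genes of the further lists are not reported here. Members and lists were chosen with earlier results of these data known. Depth was read from the steps of low values, of which 94.4% to 97.1% were whole within 0.1 reads. Floors cover counting error only. Count tests were not used, since RPKM are not counts. No 2 libraries of a group agreed within sampling noise (median chi-square per gene 3.45 to 35.1). The 21 alternatives included other pseudocounts, filters, scalings and left-out libraries. The labels give each group replicates 1 to 3. Deviations of same-numbered libraries from their group means correlated at 0.39, 0.25 and 0.23 between neuroectoderm and mesendoderm, all over 0.1, so for that contrast the fit with replicate as a block is given beside the calls it changed. Libraries of different number passed 0.1 too: neuroectoderm 3 with mesendoderm 2 (0.24) and neuroectoderm 2 with mesendoderm 3 (0.15). The remaining pairs lay at -0.37 to -0.20. The mark of 0.1 thus does not by itself show that the numbers pair these samples. Promoter sequences are from RefSeq (GRCh38.p14), matched by symbol for 42 of the 48 members.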

Additional observations from a re-analysis of the deposited data

Results flagged for a closer look

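3 genes were called in opposite directions against hESC in the 2 lineages, so that the difference between neuroectoderm and mesendoderm, which tests the difference of the 2 changes itself, was called too. PSMG2, a chaperone of the alpha ring, fell in neuroectoderm (-0.47) and rose in mesendoderm (0.71), a difference between the lineages of -1.18 (limma adjusted p = 3.33e-05). It was called in every one of the 21 alternatives in all 3 contrasts. MAFF, a small MAF protein, differed by -0.92 (limma adjusted p = 0.000405), at levels of 0.267 ± 0.127 RPKM in neuroectoderm and 1.41 ± 0.368 RPKM in mesendoderm (n = 3). Its fall in neuroectoderm was not called in 2 of the 20 alternatives that tested it (adjusted p of up to 0.0829), and its rise in mesendoderm not in 7 of them (up to 0.107). ERAP1, the peptide-trimming enzyme, went the other way and was higher in neuroectoderm by 1.15 (limma adjusted p = 1.54e-05). All 3 comparisons share their groups, so the values of 1 gene are not independent of each other.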

How the results depend on the processing

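Of the values of single genes and the members' medians under the alternatives, 1895 kept direction and side of the threshold (medians: moved by less than the spread), 95 lost a call, 49 gained one and 35 changed sign. The cause of the changes below was not tested. For most alternatives the share over all genes is not given, so the counts show only how the calls moved. In neuroectoderm against hESC, 20 members were lower in the fit reported, and 14 to 22 when single libraries were left out (0 to 2 higher). Without the 3 libraries set apart, 2 were higher. In mesendoderm against hESC, members called lower went from 1 to 2 (small RNA left out, quantile normalization, only the 2 groups, no variance trend), 5 (same median), 6 (without the 3 libraries) or 3 (GC trend removed). Members called higher went from 2 to 5 (only the 2 groups) or 10 (without the 3 libraries). Leaving out 1 library gave 0 to 3 lower and 1 to 6 higher. In neuroectoderm against mesendoderm, leaving out 1 library gave 12 to 22 lower and 0 to 1 higher, and 1 was higher without the 3 libraries. With the replicate block, 17 members were lower in neuroectoderm than in hESC, 1 lower and 1 higher in mesendoderm, and 16 lower in neuroectoderm than in mesendoderm. With hESC, the replicate numbers did not pair the samples: deviations of same-numbered libraries correlated at -0.74 to 0.40. The block ended the calls of PSMA4, PSMC2 and PSMD13 in neuroectoderm and of PSMB5 in mesendoderm.

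All 35 changes of sign were in genes without a call in the fit reported. In neuroectoderm against hESC, PSMB7 was 0.073 with quantile normalization and 0.033 without the 3 libraries, NFE2L1 0.16 and 0.15, and B2M 0.041 and 0.24, and 0.009 with small RNA left out. Leaving out 1 library moved PSMB7 over -0.39 to 0.17, PSME2 over -0.34 to 0.12, NFE2L1 over -0.15 to 0.16, KEAP1 over -0.54 to 0.021, UBB over -0.47 to 0.089 and B2M over -0.16 to 0.28. In mesendoderm against hESC, PSME2 was -0.007 with the same median and UCHL5 0.054 without the 3 libraries. Leaving out 1 library moved PSME1 over -0.073 to 0.61, PSME2 over -0.10 to 0.18, PSMB6 over -0.009 to 0.27, UCHL5 over -0.10 to 0.01 and KEAP1 over -0.16 to 0.10. In neuroectoderm against mesendoderm, USP14 was 0.024 with small RNA left out, 0.037 with the same median and 0.098 with quantile normalization. Leaving out 1 library moved it over -0.092 to 0.04, PSME2 over -0.42 to 0.048, KEAP1 over -0.53 to 0.039 and UBB over -0.14 to 0.36.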
